A study of Mus musculus with 4 samples.

Results

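Nr5a2 encodes an acinar nuclear receptor, and the ARID1A peaks around this gene are described here. The members are the peaks of 4 deposited lists that overlap chr1:138640000-138960000 of the mouse build mm9, a window of 320 kb around a gene that spans about 138.74 to 138.86 Mb. The window was chosen by its gene and with its peaks known: a peak near its middle was listed in both control libraries and in EGF replicate 1. Its peak counts and that peak's calls are therefore given as a description, with no test. The window held 12 peaks, 4 of the 4031 in control replicate 1, 7 of the 7112 in control replicate 2, 1 of the 57 in EGF replicate 1 and 0 of the 20 in EGF replicate 2. Joined where they overlap, they make up 8 regions, out of 8206 in the whole series.

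The study mapped ARID1A by chromatin immunoprecipitation and sequencing in 266-6 cells, a mouse pancreatic acinar line from a tumour driven by SV40 T antigen under an elastase promoter. Cells in both groups were starved of serum for about 14 h. The EGF group then received 40 ng/ml epidermal growth factor for 8 h and the control group 0.1% BSA. Each group has 2 libraries, and nothing says that these came from separate cultures, so their spread may be technical. The lists hold no expression levels, so acinar markers could not be examined.

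ARID1A is the large DNA-binding subunit of the BAF form of the SWI/SNF complexes, which move nucleosomes and keep enhancers accessible. NR5A2, also called LRH-1, is a nuclear receptor that binds DNA as a monomer. In the exocrine pancreas it acts with the PTF1 complex on digestive enzyme genes and helps to maintain acinar identity. Nr5a2 lies on the minus strand, so its upstream side is the one with higher coordinates. In the RefSeq annotation of GRCm38.p6 its protein-coding neighbours are Zfp281, a zinc finger transcription factor gene, and Ptprc, which encodes the leukocyte phosphatase CD45. That annotation is of another build, and no peak was placed in an exon, intron or promoter with it.

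Values are given on 3 scales. The fold is the authors' own, with 1 added to scaled reads and to local input. The level is the number of reads at the summit, recovered from the deposited fold and p, divided by the mean number of reads in the library per 200 bp of genome. The ratio over local input divides the scaled reads by the input estimated around the summit. The library means were 1.18, 1.14, 1.06 and 1.23 reads per 200 bp in control replicates 1 and 2 and EGF replicates 1 and 2. The input was deeper for the control lists, at a background of 0.771 reads per 200 bp, than for the EGF lists, at 0.506. Intervals are exact 95% Poisson intervals and cover counting error only.

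The strongest ARID1A peak over Nr5a2, by reads, fold and score in each list that held it, lay inside the gene, about 48 kb from its upstream end. The peak lay at chr1:138811929-138812406 in control replicate 1, chr1:138811911-138812499 in control replicate 2 and chr1:138812054-138812307 in EGF replicate 1. Its width was 478, 589 and 254 bp in that order, and the EGF peak lay wholly inside both control peaks. The summits were at 138812101, 138812084 and 138812152. The control summits were 17 bp apart, and the EGF summit was 51 and 68 bp from them. Over the 2874 peaks of control replicate 1 found in control replicate 2, summits were a median of 66 bp apart (quartiles 28 and 124).

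In control cells this was among the strongest listed peaks, though its choice by a call in EGF replicate 1 favours a strong peak. Its deposited score ranked 71 of 4031 in control replicate 1 and 82 of 7112 in control replicate 2. These ranks correspond to percentiles of 98.2 and 98.8. The authors' −log10 q at the summit was 15.8 and 18.7 in the control lists and 6.32 in EGF replicate 1. On chromosome 1 it was the 8th of 268 and the 9th of 425 peaks by score. By reads the percentiles were lower, at 95.7 and 96.7. In EGF replicate 1 it stood 20th of 57 by score and 13th by reads, and it was the second of 4 peaks listed on chromosome 1.

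**Figure D1:**
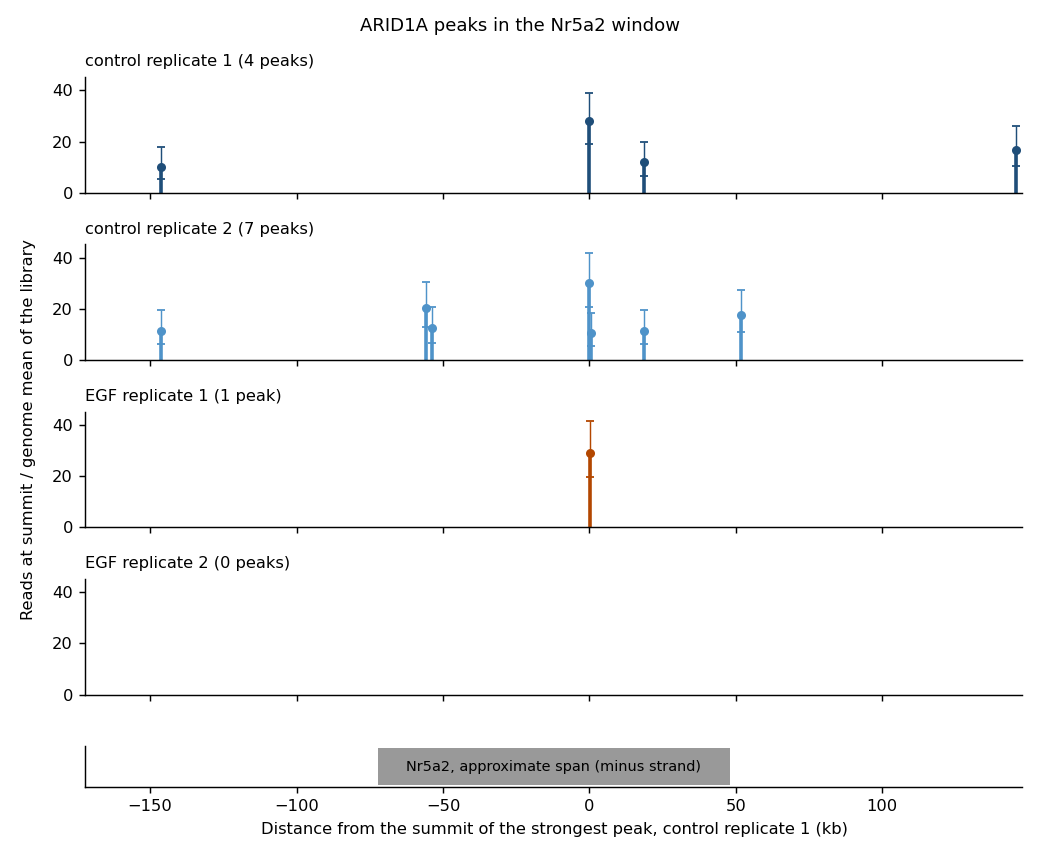
Reads at the summit over the genome mean of the library (y axis, points with exact 95% Poisson intervals) for each peak of the window, against distance in kb from the strongest summit (x axis), with 1 panel per library; the grey bar is the approximate span of Nr5a2. The peak at 0 reaches 27.9, 30.0 and 29.2 in the 3 lists that hold it, and the other 9 peaks lie between 10.1 and 20.3.

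The reads behind the peak were nearly the same in the 3 libraries that list it. The summit held 33 reads in control replicate 1 (interval 22.7 to 46.3), 34 in control replicate 2 (23.5 to 47.5) and 31 in EGF replicate 1 (21.1 to 44.0). Over the genome mean of each library, the level was 27.9 (19.2 to 39.1), 30.0 (20.7 to 41.9) and 29.2 (19.8 to 41.4). The EGF value fell between the control values. The control mean was 28.9 ± 1.48 (SD, n = 2), and EGF replicate 1 was at 1.01 times that mean (log2 0.01). The peak was chosen as listed in EGF replicate 1, and a much lower value might not have been listed. At its local input, the weakest −log10 p of that list, 7.07, corresponds to 21 reads, or a level of 19.8.

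On the 2 scales that use local input, the same peak was lower in EGF replicate 1. The authors' fold was 11.2 and 12.1 in control replicates 1 and 2 and 7.89 in EGF replicate 1, which is 0.677 times the control mean of 11.7 ± 0.57 (SD, n = 2). Scaled reads over local input were 21.5, 23.1 and 14.8, or 0.662 times the control mean. On both scales EGF replicate 1 lay below both control libraries. The local input at the summit was 1.0 read per 200 bp in all 3 lists, equal to 5 input reads per kb. Relative to its own background this input was 1.30 times in the control lists and 1.98 times in the EGF list. If the input was counted over 1 kb, its 5 reads have an interval of 1.62 to 11.7 reads, and neither of these input ratios is precise. An input counted over 10 kb would rest on more reads, and which window gave the value was not determined. The 2 control lists show the same input background, and the local input was equal at 254 of 274 pairs of summits within 10 bp, so the SD of the controls does not contain the error of the input. The ratio over local input equals the level divided by local input over background, so these 2 scales differ only through the input. The part of EGF in the input difference was not tested.

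**Figure D2:**
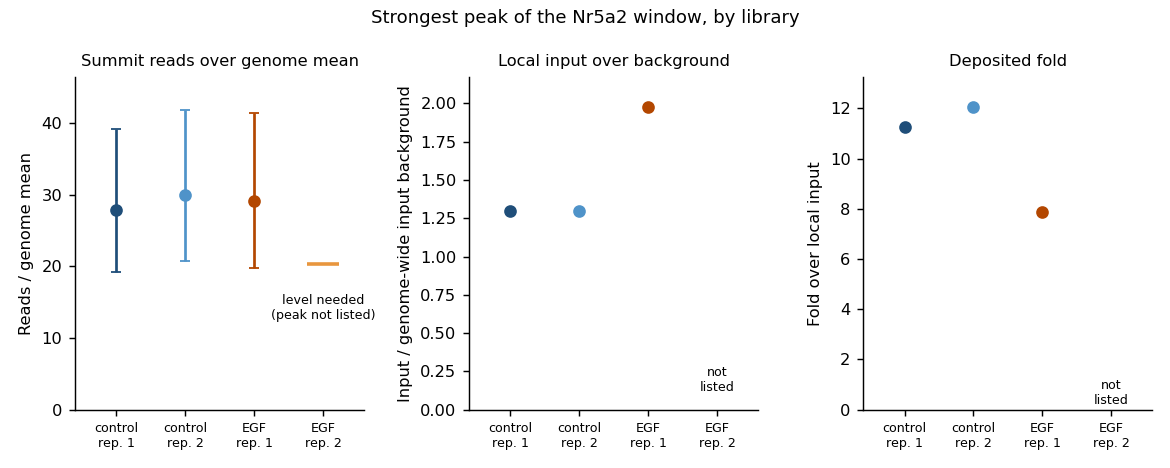
The strongest peak of the window in each library, as reads at the summit over the genome mean (left, with exact 95% Poisson intervals), local input over the genome-wide input background (middle) and the authors' fold (right). Reads are alike at 27.9, 30.0 and 29.2, while local input is 1.30, 1.30 and 1.98 and the fold 11.2, 12.1 and 7.89; the bar for EGF replicate 2, which does not list the peak, marks the level of 20.3 needed at the local input of EGF replicate 1.

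EGF replicate 2 did not list the peak. Its weakest listed peak had a −log10 p of 8.00. At the local input seen in EGF replicate 1, that p corresponds to 25 reads, or a level of 20.3. The control mean level would have given 35.6 reads in this library. The EGF lists show 1 input background, and the 2 pairs of their summits that lay within 10 bp had equal local input. If the input is shared by the EGF lists, a site of that input with 25 or more reads over a listable width would have been as strong as a listed one. The level in EGF replicate 2 was then at most 19.5, which is 0.673 times the control mean and 0.667 times EGF replicate 1. The condition on width matters, because the narrowest peak in each of the 4 lists is 200 bp wide. The 24 reads are the most that this allows and not an observed count, which may be lower. A count of 24 would have an interval of 12.5 to 29.0 in level, which overlaps that of EGF replicate 1. A difference between the EGF libraries was not tested. With 1 value and 1 limit, no EGF mean can be given.

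The remaining peaks within the gene had low scores and folds in control cells and were listed in neither EGF library. About 29 kb from the upstream end, a peak lay at chr1:138830564-138830778 in control replicate 1 and chr1:138830667-138830899 in control replicate 2. It had 14 and 13 reads, a level of 11.8 and 11.5 and a fold of 5.27 and 5.02. The 2 libraries were close in height there, but their summits were 160 bp apart and they shared 112 bp. The strongest peak was 2.48 times as high by mean level.

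Control replicate 2 alone listed 3 more peaks within the gene. The peak at chr1:138812710-138812978 began 210 bp after the strongest one ended, with 12 reads, a level of 10.6 and a fold of 4.58. Towards the downstream end, peaks lay at chr1:138755974-138756173 and chr1:138758032-138758348, with 1.86 kb between them. The former had 23 reads and a level of 20.3, second in the window only to the strongest peak. Its fold was nevertheless 3.33, the lowest of the 12 peaks, over a local input of 4.0 reads per 200 bp, which is 5.19 times the background. The latter had 14 reads, a level of 12.3 and a fold of 5.26 over an input of 1.0.

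Outside the approximate gene span lay 3 regions. Beyond the upstream end, by 3.47 kb against a gene boundary rounded to 10 kb, control replicate 2 had the widest peak of the window, 670 bp at chr1:138863472-138864141, with 20 reads, a level of 17.6 and a fold of 4.86. Its summit lay towards the far side, at 138864001. Near the upper edge of the window, control replicate 1 alone had a peak at chr1:138957617-138957816 with 20 reads, a level of 16.9 and a fold of 4.68. Both stood over an input of 2.0, or 2.59 times the background. On the downstream side, about 74 kb from the gene, both control lists had a peak, at chr1:138665760-138666047 with 12 reads and a fold of 4.41 and at chr1:138665666-138665903 with 13 reads and a fold of 5.55. Its level was 10.1 and 11.5, and the strongest peak was 2.68 times as high by mean level.

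Apart from the strongest peak, then, the window held signal in the lower part of the control lists, at score percentiles from 1.25 to 33.4. By reads, 3 of them were in the upper part, at percentiles of 79.8, 65.6 and 59.4, and these 3 stood over inputs of 4.0, 2.0 and 2.0. The 9 other control peaks had levels from 10.1 to 20.3 with a median of 11.8, and their folds ran from 3.33 to 5.55, all below the list medians of 5.84 in each control list. Their −log10 q ran from 1.71, at the downstream peak of control replicate 1, to 3.97, at the wide peak upstream of the gene. The first peaks beyond the edges on the lower side were 142 and 24.0 kb away in control replicates 1 and 2, with a fold of 5.38 and 5.53. On the upper side both lists had a peak 252 kb away, with a fold of 6.45 and 7.09, above those of the 9 peaks.

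Shared calls in the window ran as follows. Of the 4 peaks of control replicate 1, 3 overlapped a peak of control replicate 2, where 71.3% of all its peaks did so. Of the 7 peaks of control replicate 2, 3 overlapped control replicate 1, against 40.4% of all. Both shares of members are near the background. By regions, 3 of 8 (37.5%, exact Clopper-Pearson interval 8.52% to 75.5%) were in both control lists, 1 was in control replicate 1 alone and 4 in control replicate 2 alone. In EGF replicate 1, 1 of the 4 and 1 of the 7 control peaks was called, where 1.39% and 0.787% of all control peaks were. That call chose the window, so nothing is read from it. In EGF replicate 2, 0 of the 4 and 0 of the 7 were called, where the shares of all peaks were 0.496% and 0.281%.

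Set against the weakest listed EGF peaks, absence of the 9 other control peaks from the EGF lists was not informative. The weakest peaks listed with EGF had a −log10 p of 7.07 and 8.00, against 4.43 and 4.25 in the control lists. Even at the genome-wide input background, these correspond to levels of 14.1 and 16.2 in EGF replicates 1 and 2. Of the 9 other control peaks, 6 had lower levels than either of these. The other 3 were the ones over raised input. If each site kept its control input relative to background, 0 of the 9 would have matched the weakest listed EGF peak at an unchanged level. Set against the weakest listed EGF peaks, an unchanged site and a lost one cannot be told apart for these 9 peaks. The cut-off of the caller is not given, and it may lie below the weakest listed peak. The smallest −log10 q was 2.07 and 2.47 in EGF replicates 1 and 2. It was 1.31 and 1.38 in control replicates 1 and 2. The levels needed with EGF may thus be lower than those given.

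Peaks were denser around Nr5a2 than in the neighbouring DNA in both control lists. The window had 12.5 and 21.9 peaks per Mb in control replicates 1 and 2. The flanking 5 Mb on each side had 29 and 49 peaks, or 2.90 and 4.90 per Mb. The density in the window was thus 4.31 and 4.46 times that of the flanks, with a mean of 4.39 ± 0.109 (SD, n = 2). This SD leaves out the counting error of 4 and 7 window peaks, and 3 of the 8 regions are in both control lists. The 2 sides differed: the downstream side had 4.40 and 7.80 peaks per Mb, and the upstream side 1.40 and 2.00. The mean ratio was 2.82 against the downstream side alone and 9.93 against the upstream side alone. It also rested on peaks of low −log10 p. When only peaks at least as strong in −log10 p as the weakest of EGF replicate 2 were counted in each list, the window kept 1 region and the mean ratio was 1.36 ± 0.401 (SD, n = 2).

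Intervals as wide as the window gave a finer view of the same 2 lists. Of 30 such intervals in the flanks, 1 held as many peaks as the window in control replicate 1 (5 peaks against 4) and 0 did in control replicate 2 (at most 6 against 7). The median interval held 0 peaks and 1 peak, and 16 and 11 intervals were empty. The densest intervals lay on the downstream side. By fold and score, 0 flanking peaks exceeded the strongest Nr5a2 peak in either control list: the highest fold in the flanks of the 2 lists was 10.1 and 8.58. By reads, 0 did in control replicate 1 and 1 did in control replicate 2, with 38 reads against 34.

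**Figure D3:**
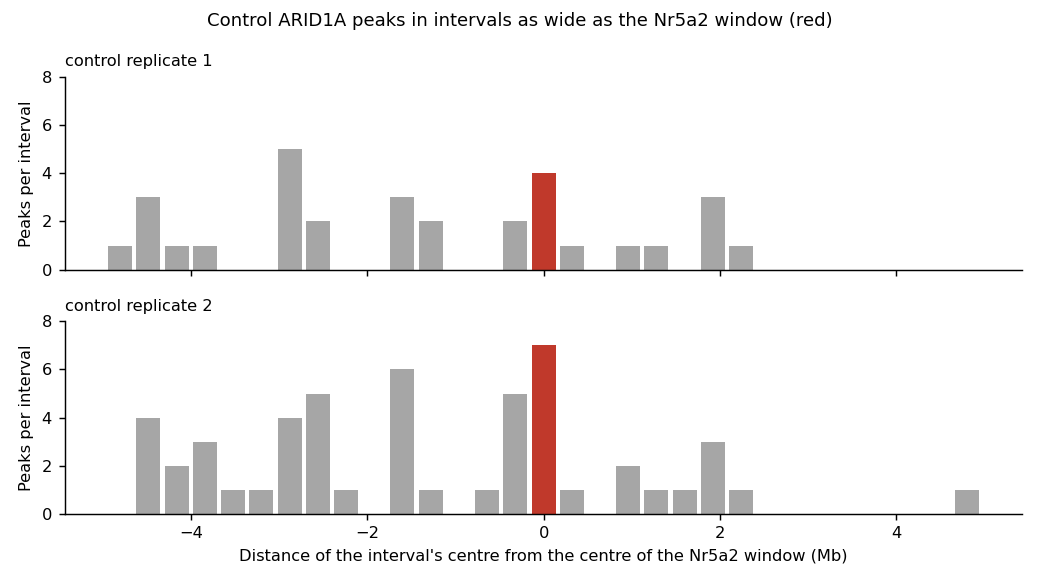
Number of control peaks (y axis) in consecutive 320 kb intervals, by distance in Mb from the centre of the Nr5a2 window (x axis); red marks the window, grey the 30 flanking intervals, and the upstream side of the gene is on the right. The window holds 4 and 7 peaks, and 1 flanking interval of control replicate 1 and 0 of control replicate 2 hold as many.

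With EGF the flanks were nearly empty as well. EGF replicate 1 listed 1 peak there, at chr1:140825424-140825679, 1.87 Mb above the window, with 29 reads and a fold of 9.26, higher than the 7.89 of the Nr5a2 peak. EGF replicate 2 listed 0 peaks on chromosome 1. Density in the flanks was 3.90 ± 1.41 per Mb for the control libraries and 0.05 ± 0.0707 for the EGF libraries (SD, n = 2 each), a difference of −3.85 per Mb (exact two-sided permutation p = 0.333, the smallest that 2 libraries against 2 can give). The groups did not overlap, and the design cannot reach 0.05. The whole lists did not overlap in size either. The flanks held 29 of 4031 and 49 of 7112 peaks in control replicates 1 and 2. They held 1 of 57 and 0 of 20 in EGF replicates 1 and 2. The difference is thus not read as particular to these flanks. Counting in each list only peaks that reach the p of the weakest peak of EGF replicate 2, the difference was −2.35 per Mb. Input depth also differs along with the treatment, and the 2 cannot be told apart here.

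The calls of the strongest Nr5a2 peak were shared by 38 other peaks of control replicate 1, all found in both control lists and EGF replicate 1 and absent from EGF replicate 2. By control level the Nr5a2 peak was near the middle, with 17 lower and 18 higher in control replicate 1. In control replicate 2, 20 were lower and 17 higher. By control fold it stood higher in the set, with 30 lower in control replicate 1 and 31 in control replicate 2. Its level relative to control, 1.01, was in the upper part of this set: 29 of the 38 were lower and 9 higher, with a median of 0.903 and a range of 0.620 to 1.72. Over local input the order was the opposite. The Nr5a2 peak was at 0.662, with 4 of the 38 lower and 34 higher, a median of 1.07 and a range of 0.157 to 3.95. By the authors' fold it was at 0.677, with 7 lower and 31 higher. The set is chosen by being called with EGF, so these ratios describe it and were not tested.

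**Figure D4:**
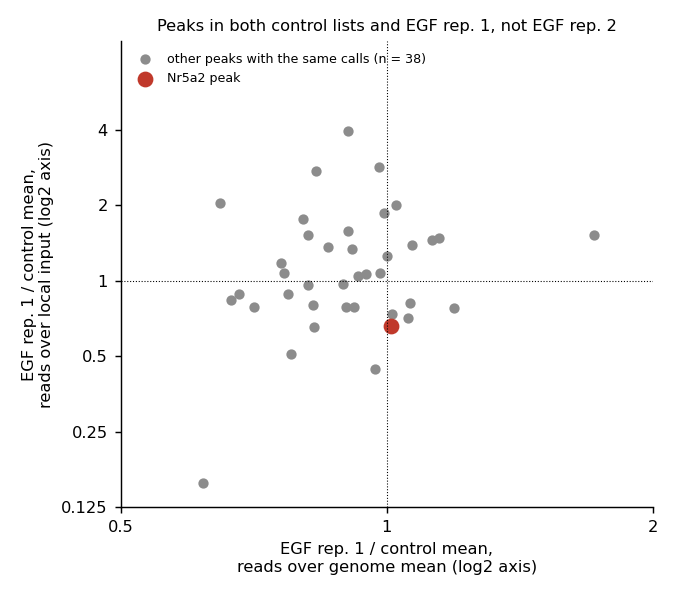
Ratio of EGF replicate 1 to the control mean for the 39 peaks with the same calls, by reads over the genome mean (x axis, log2) and by reads over local input (y axis, log2); each point is 1 peak and dotted lines mark a ratio of 1. The Nr5a2 peak (red) is at 1.01 on the x axis and 0.662 on the y axis, with 29 peaks to its left and 34 above it.

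Nearest to it in fold over the 3 lists, by Euclidean distance of log2 fold, were 5 peaks on 5 chromosomes. The closest, at chr17:50509682-50510192 (distance 0.05), had folds of 11.0, 11.7 and 7.97 in control replicates 1 and 2 and EGF replicate 1. It differed in reads, with a level of 0.774 times control in EGF replicate 1. The next was chr6:145330905-145331647 (0.15), with folds of 10.2, 11.6 and 7.72. The third, chr1:64855714-64856020 (0.17), is on the same chromosome as Nr5a2 and had folds of 11.6, 13.4 and 7.56 with a level of 0.666 times control. Peaks at chr9:70736924-70737222 (0.17) and chr8:73047060-73047622 (0.19) followed, with levels of 1.06 times control in each, as at Nr5a2. Similar folds thus covered levels from 0.666 to 1.06 times control in these 5 peaks.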

How the data were processed

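The authors deposited 1 peak list per library. The submitters' processing notes name mm9, the peak caller MACS2 2.1.1.20160309.0, the aligner Bowtie2 2.3.4.2, and also deepTools 3.0.2 and SAMtools. Their options are not given here. Each deposited list has 10 columns with start, end and summit offset, a score (10 times the −log10 q, rounded down), a fold (ratio of summit reads to local input) and the −log10 p and −log10 q of the summit. Positions are printed counted from 1.

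Summit reads and local input were recovered from fold and −log10 p by inverting a Poisson tail, with 1 scaling factor per list, a read extension of 200 bp, and input counted over 1 kb or 10 kb. These settings are inferred from the values. A whole read number was found for 100% of peaks, within 2.5e-05 in −log10 p, and each of the 12 members had 1 solution within the tolerance of 2e-04. The procedure was tested on simulated peaks with more reads than the weaker members. They were made with the same inferred settings, so they do not test those settings. Overlap means 1 bp or more. Python 3.11.15, SciPy 1.17.1 and pandas 2.3.3 were used.

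The members, the window and the alternatives were chosen with earlier results of these data known. Named peaks are all members, and the 5 peaks with the same calls nearest in log2 fold over 3 lists. The nearest peaks beyond the window and the EGF peak of the flanks were named after their values were seen. The tested comparison was peak density in the flanks; alternatives changed the flank, window, thresholds, joining and scale, and left out each library in turn. The intervals as wide as the window, the reads needed for a call and the summary of peaks with the same calls were added after the lists were seen. No genome of mm9 was used, so no sequence under the peaks is given.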

Additional observations from a re-analysis of the deposited data

How the results depend on the processing

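Of 51 alternatives for 6 results, 33 kept their value within the spread, the interval or 1.5 times a count, or kept their direction, and 18 moved. The window was chosen with its peaks known, and no alternative left out the peak that chose it, so its density is only described. The spread of the window's density over its flanks, an SD of 0.109 between 2 control libraries, leaves out the counting error of the peaks. The density of the window over its flanks, 4.39, ran from 1.36 to 9.93 under 14 alternatives, of which 10 moved. It was 5.56, 3.91 and 6.10 with flanks of 1, 2 and 10 Mb, 7.13 for the gene span alone, 9.93 and 2.82 against the upstream and downstream flank, 9.79 against the rest of chromosome 1 up to its last listed peak, 3.84 at q of 0.005, 1.36 with 1 p-value bound and 4.19 with peaks within 0.5 kb joined. The 8 regions were 5 in the gene span alone, 1 with 1 p-value bound, where the share in both control lists was 100% in place of 37.5% (22.2% with 50% of both lengths shared and 28.6% at q of 0.005), and 4 to 8 with each library left out, 4 being without control replicate 2. The strongest peak in EGF replicate 1 was at 0.662 times control over local input and 0.677 by fold, against 1.01, and so turned from about equal to lower than control; leaving out a control library gave 0.975 and 1.05. Its mean percentile, 98.5 by score, was 96.2 by reads and 89.8 by width. A replicate block gave a flank density difference of −3.85 per Mb (exact sign permutation p = 0.5, its minimum with 2 pairs). Nothing says whether libraries with equal numbers belong together. Their log2 levels deviated with r = -0.0893 over 16 sites listed 4 times, a set too small to tell whether they are paired. With 1 p-value bound the flank density difference was −2.35, and with each library left out it ran from −4.85 to −2.85, as values with no test. The share of regions in both control lists has no value without 1 of them. The p values cannot pass a threshold in this design and say nothing about stability.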
